A study of Mus musculus with 11 samples.

Results

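Endothelial cells line the vessels of muscle, and 10 genes that mark them were followed across fasted mouse gastrocnemius, a mixed-fibre calf muscle. The genes were taken by symbol from a list of endothelial markers, and all 10 were found among the 55385 genes of the deposited table. They were Kdr, Flt1, Tek, Tie1, Cdh5, Pecam1, Ecscr, Emcn, Vwf and Sox17, and all 10 passed the filter on low counts.

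RNA was sequenced from 11 libraries in 4 groups, all of muscle taken after 36 h without food. ZEB1 knockouts (ZEB1 flx/flx; HSACre) had 3 libraries and ZEB1 controls (ZEB1 flx/flx) had 2. ZEB2 knockouts (ZEB2 flx/flx; HSACre) had 3 libraries and ZEB2 controls (ZEB2 flx/flx) had 3. Each library held RNA of 2 mice, so error terms and p-values measure the spread between pools, and the labels give no ages. HSACre is a recombinase under the skeletal actin promoter, which is active in myofibres and not in endothelial cells. Every group was fasted and both members of each pair carried floxed alleles, and no group carried Cre without floxed alleles. Loss of a ZEB gene and presence of Cre therefore cannot be told apart.

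Endothelial cells are steered by paired receptor systems. The kinase Kdr (VEGF receptor 2) carries most of the growth and survival signal of VEGF-A, whereas Flt1 (VEGF receptor 1) binds the ligand more tightly, signals weakly and also exists as a soluble decoy. Tek (Tie2) is the receptor of the angiopoietins, of which the agonist Angpt1 keeps vessels quiescent. Tie1 is the partner of Tek, with no ligand of the angiopoietin family of its own. Cdh5 (VE-cadherin) and Pecam1 (CD31) hold neighbouring cells together, Ecscr and Emcn (endomucin) are sialomucin-like surface proteins, Vwf is the clotting protein stored in endothelial granules, and Sox17 is a transcription factor of arterial endothelium.

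The promoters of the 4 receptors are shown because Kdr and Tek had the lowest estimates in ZEB2 knockouts and Flt1 and Tie1 are their partners. Of the 10 genes 5 had an entry in the RefSeq promoter table (GRCm38.p6), namely the 4 receptors and Emcn. Each sequence runs from 250 bases before the annotated start to 50 bases after it. Capitals mark matches, on either strand, to AGGAAG or CCGGAA, which are letters of sites for ETS factors, a family that drives many endothelial genes.
Kdr promoter, chr5:75978406-75978705, minus strand: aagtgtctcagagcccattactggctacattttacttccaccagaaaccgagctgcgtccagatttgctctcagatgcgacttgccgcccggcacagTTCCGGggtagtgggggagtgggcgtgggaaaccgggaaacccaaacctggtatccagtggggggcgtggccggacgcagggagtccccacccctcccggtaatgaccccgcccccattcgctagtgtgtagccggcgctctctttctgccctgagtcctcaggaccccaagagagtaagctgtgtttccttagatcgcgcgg
Flt1 promoter, chr5:147725962-147726261, minus strand: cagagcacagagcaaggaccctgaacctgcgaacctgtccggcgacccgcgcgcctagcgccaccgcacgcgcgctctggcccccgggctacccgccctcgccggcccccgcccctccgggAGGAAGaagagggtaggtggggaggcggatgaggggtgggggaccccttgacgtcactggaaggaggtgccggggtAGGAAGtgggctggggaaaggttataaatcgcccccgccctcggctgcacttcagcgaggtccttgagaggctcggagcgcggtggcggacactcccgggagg
Tek promoter, chr4:94739039-94739338, plus strand: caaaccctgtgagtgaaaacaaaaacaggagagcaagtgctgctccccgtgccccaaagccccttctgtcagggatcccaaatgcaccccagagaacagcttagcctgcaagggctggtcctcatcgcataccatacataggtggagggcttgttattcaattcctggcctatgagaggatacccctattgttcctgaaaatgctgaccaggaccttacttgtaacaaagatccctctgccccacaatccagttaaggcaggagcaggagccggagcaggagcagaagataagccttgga
Tie1 promoter, chr4:118489800-118490099, minus strand: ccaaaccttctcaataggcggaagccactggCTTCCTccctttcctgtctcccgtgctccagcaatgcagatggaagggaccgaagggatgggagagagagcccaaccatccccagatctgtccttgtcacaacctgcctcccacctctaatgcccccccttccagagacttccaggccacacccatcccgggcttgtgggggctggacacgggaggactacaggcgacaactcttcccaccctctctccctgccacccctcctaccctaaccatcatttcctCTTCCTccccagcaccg
The only match for Kdr was 1 CCGGAA, 153 bases before the start. Flt1 had AGGAAG at 129 and 53 bases before its start, and Tie1 had it 219 bases before and 34 bases after the RefSeq start. In GENCODE M21 the Tie1 gene begins further upstream, at 118490061, within the window shown, so these distances hold for the RefSeq start only. In Tek neither word was present in this window. AGGAAG was found in 3 of the 5 promoters, against 35.4% of the 32851 promoters in the table, and CCGGAA in 1 of 5 against 14.9%. The letters CAGGTG, a box that ZEB factors bind, were in 0 of the 5 promoters and in 20.2% of all promoters. Only this whole word was sought. Its shorter stretch AGGTG, read on either strand, does stand in the Flt1, Tek and Tie1 sequences shown and was not counted or marked. No matches overlapped in the promoters shown, and a match is a description of letters only.

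The receptor genes also lie in pairs on chromosomes. In GRCm38 Kdr (ENSMUSG00000062960.10, minus strand) spans 75932827 to 75978458 on chromosome 5, and Flt1 (ENSMUSG00000029648.13, minus) spans 147561604 to 147726011 on the same chromosome. On chromosome 4, Tek (ENSMUSG00000006386.15, plus) spans 94739289 to 94874976 and Tie1 (ENSMUSG00000033191.14, minus) spans 118471191 to 118490061. Cdh5 (ENSMUSG00000031871.9) lies on chromosome 8 from 104101625 to 104144511, and Pecam1 (ENSMUSG00000020717.19) on chromosome 11 from 106654217 to 106750628. Ecscr (ENSMUSG00000073599.10) is on chromosome 18, Emcn (ENSMUSG00000054690.17) on chromosome 3, Vwf (ENSMUSG00000001930.17) on chromosome 6 and Sox17 (ENSMUSG00000025902.13) on chromosome 1.

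Levels were scaled to library size as CPM with TMM factors, and divided by exon length in kilobases where genes are compared with each other. This length joins all annotated exons of a gene, so the order also depends on the annotation. Without division by length Pecam1 had a higher median than Cdh5, at 118.1 CPM against 100.8 CPM. Cdh5 was the most abundant marker per length, with a median of 23.99 CPM per kilobase over the 11 libraries (19.9 to 31.4), and it exceeded Pecam1 (18.96, range 15.9 to 22.4) in 11 of 11 libraries. Pecam1 in turn lay above every value of the next gene, Tie1 (8.64, range 7.13 to 10.8). Below it Flt1 (7.39), Tek (6.54) and Kdr (4.53) had overlapping ranges. Their order held in 7 of 11 libraries for Tie1 over Flt1, in 7 for Flt1 over Tek and in 8 for Tek over Kdr, so these neighbours were not separated beyond their spread. Ecscr (3.92), Vwf (3.08) and Emcn (2.82) followed with overlapping ranges, and Sox17 (1.61) was lowest, below Emcn in 11 of 11 libraries. The 2 adhesion genes thus led the list and the transcription factor closed it. Across libraries Kdr varied most, 2.43-fold between its highest and lowest library, and Pecam1 least, 1.41-fold.

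Library totals ran from 27.3 M to 46.3 M counts, and the mitochondrial genome took 12.1% to 18.0% of them. The targeted genes were lower in their own knockouts. Zeb1 stood at 28.4, 28.6 and 30.4 CPM in ZEB1 knockouts, against 41.2 and 51.1 CPM in ZEB1 controls, and Zeb2 at 18.3, 14.4 and 17.7 CPM in ZEB2 knockouts, against 24.1, 23.1 and 25.8 CPM in ZEB2 controls. Zeb1 was also higher in every ZEB2 knockout, at 67.2, 60.2 and 75.99 CPM, against 47.7, 52.1 and 43.7 CPM in ZEB2 controls (log2 fold change 0.50, interval 0.21 to 0.80; edgeR, adjusted p = 0.0787). The libraries farthest apart on the first principal component, which took 42.8% of the variance, were ZEB2 knockout 3 (-81.5) and ZEB1 control 2 (58.2).

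In ZEB2 knockouts Kdr and Tek, the main signalling receptors of both systems, had the lowest estimates, at 52.6% and 65.6% of the level in ZEB2 controls. Ecscr was next, and Flt1 and Sox17 had higher values. In bulk muscle, fewer endothelial cells and less RNA of a gene per cell cannot be told apart. The summed level of the 10 markers was 506.7, 462.0 and 546.2 CPM in ZEB2 knockouts, against 612.9, 496.6 and 583.3 CPM in ZEB2 controls, so the groups overlapped. The 30 further pan-endothelial genes described below summed to 743.9 to 801.2 CPM in ZEB2 knockouts. In ZEB2 controls they summed to 854.6 to 983.9 CPM, without overlap. Sums of the ligand and co-receptor, arterial, capillary, venous and lymphatic lists overlapped. Of the 10 genes 8 were lower and 2 higher, and their median was -0.16 on the log2 scale, beside -0.047 over the 15416 genes tested, 53.4% of which were lower. None passed edgeR's quasi-likelihood test at an adjusted p of 0.05, and neither did any other gene (0.00% called). At an unadjusted p under 0.05 there were 3 of 10, all lower, against 33.2% of all genes in either direction and 17.3% lower. The share of markers, 3 of 10, is therefore close to the background of all genes.

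**Figure D1:**
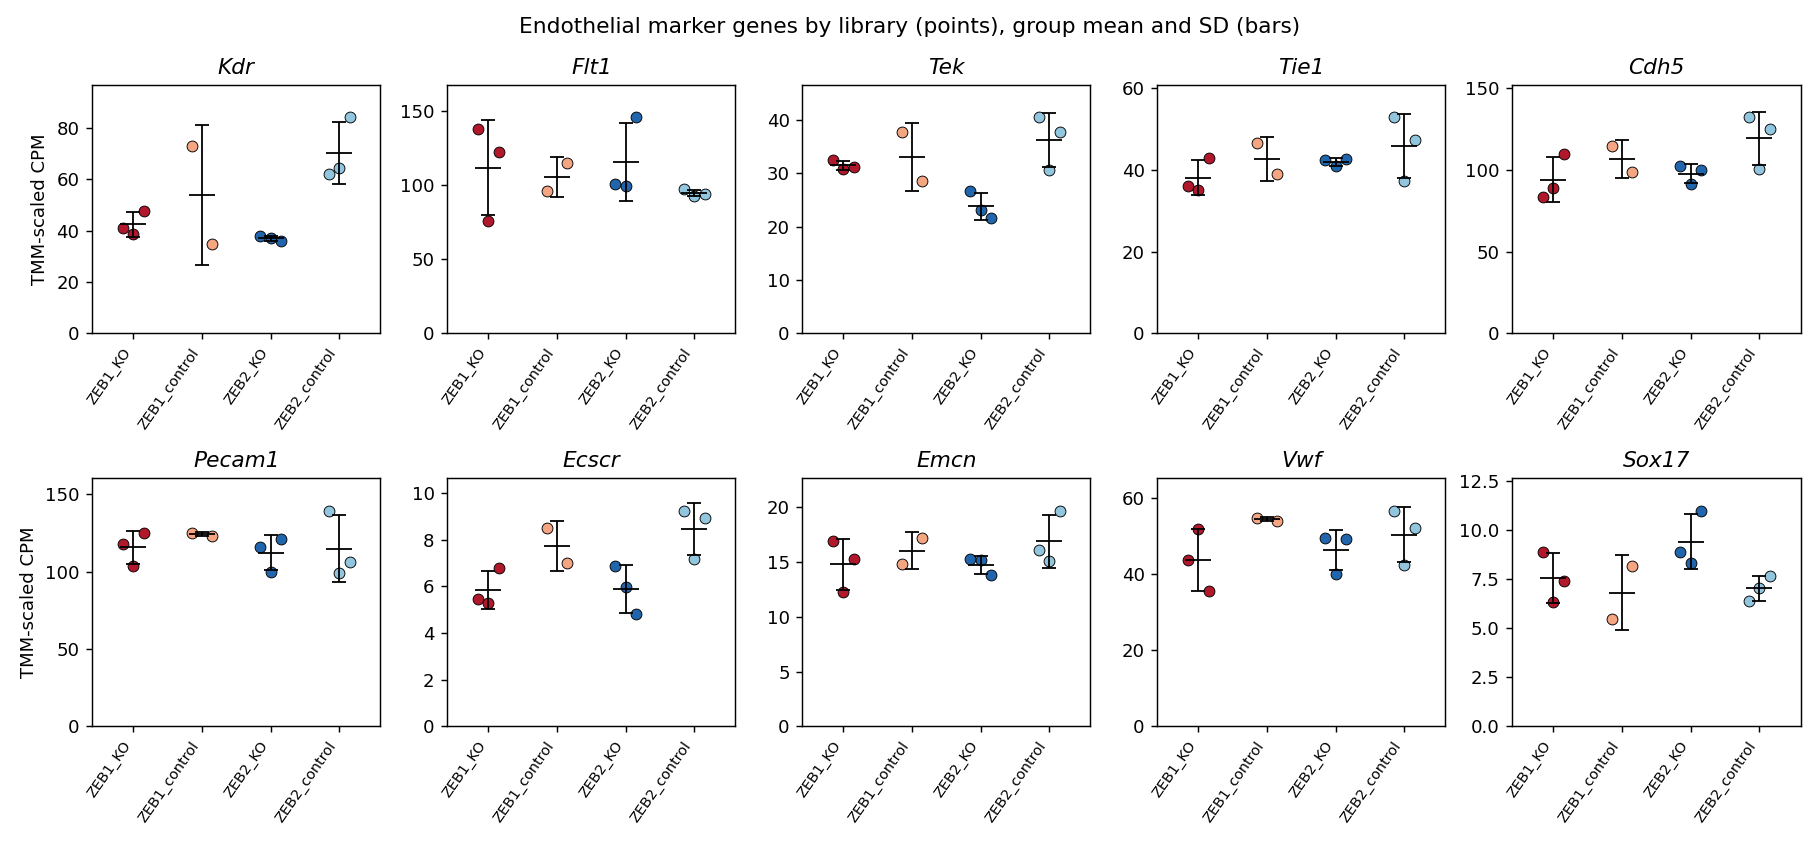
TMM-scaled CPM (y axis, from 0) of the 10 endothelial markers in ZEB1 knockout, ZEB1 control, ZEB2 knockout and ZEB2 control libraries (points), with group means and SD (black bars). For Kdr and Tek the 3 ZEB2 knockout libraries lie below all 3 ZEB2 controls, while Pecam1 overlaps between knockouts and controls of both lines.

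Kdr stood at 37.8, 37.3 and 35.9 CPM in ZEB2 knockouts, against 62.1, 64.4 and 84.2 CPM in ZEB2 controls. The knockout libraries were close together and all lay below the controls. The estimate was -0.93 ± 0.23 (SE) on the log2 scale (95% interval -1.44 to -0.41; edgeR, adjusted p = 0.0775). DESeq2 called it (adjusted p = 0.00921). So did edgeR fitted on the ZEB2 libraries alone (adjusted p = 0.0388) and edgeR without a filter on low counts (adjusted p = 0.0396).

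Tek stood at 26.6, 23.2 and 21.6 CPM in ZEB2 knockouts, against 40.5, 30.6 and 37.7 CPM in ZEB2 controls. Again no knockout reached a control. The estimate was -0.61 ± 0.15 (SE) on the log2 scale (-0.94 to -0.28; edgeR, adjusted p = 0.0775, and 0.0108 in DESeq2). Over all alternatives tried, Kdr ran from -1.01 to -0.78 and Tek from -0.72 to -0.52 on the log2 scale. Without ZEB2 knockout 3 the values were -0.89 and -0.52 (edgeR, adjusted p = 0.250 for each), and without ZEB2 control 3 they were -0.78 and -0.58 (edgeR, adjusted p = 0.302 for each). Kdr and Tek were the only markers DESeq2 called, 2 of 10, where it called 19.4% of the genes to which it gave an adjusted p and 8.91% as lower. Fitted on the ZEB2 libraries alone, edgeR called the same 2, against 14.2% of all genes and 6.54% as lower. Without a filter it called Kdr alone, against 1.29% and 0.889%.

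The partner receptors had other patterns. Flt1 stood at 101.1, 99.8 and 146.0 CPM in ZEB2 knockouts, against 97.3, 92.8 and 94.4 CPM in ZEB2 controls. The knockout libraries were all higher, although 2 of them by little, and the log2 fold change was 0.29 with an interval of -0.20 to 0.77 (edgeR, adjusted p = 0.369). Without ZEB2 knockout 3 it was 0.10. Tie1 stood at 42.5, 40.9 and 42.7 CPM in ZEB2 knockouts, against 52.9, 37.3 and 47.3 CPM in ZEB2 controls. The knockouts lay inside the range of the controls (-0.13, interval -0.45 to 0.20; edgeR, adjusted p = 0.572).

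Ratios of counts within a library do not depend on its scaling, and these pairs were chosen after the values were seen, so they are described without a test. The count of Kdr over that of Flt1 was 0.374, 0.374 and 0.246 in ZEB2 knockouts, against 0.639, 0.694 and 0.892 in ZEB2 controls. For Tek over Tie1 it was 0.627, 0.567 and 0.505 in ZEB2 knockouts, against 0.765, 0.820 and 0.797 in ZEB2 controls. In both pairs the groups did not overlap. The same held for the other ratios computed, Kdr over Cdh5, Kdr over Pecam1 and Ecscr over Cdh5. The separation was thus not limited to partner receptors, and no share over all pairs of genes was computed. In the ZEB1 line Kdr over Flt1 was 0.297, 0.508 and 0.390 in knockouts, against 0.761 and 0.301 in controls, and Tek over Tie1 was 0.898, 0.879 and 0.725 in knockouts, against 0.810 and 0.735 in controls, so both ratios overlapped there.

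**Figure D2:**
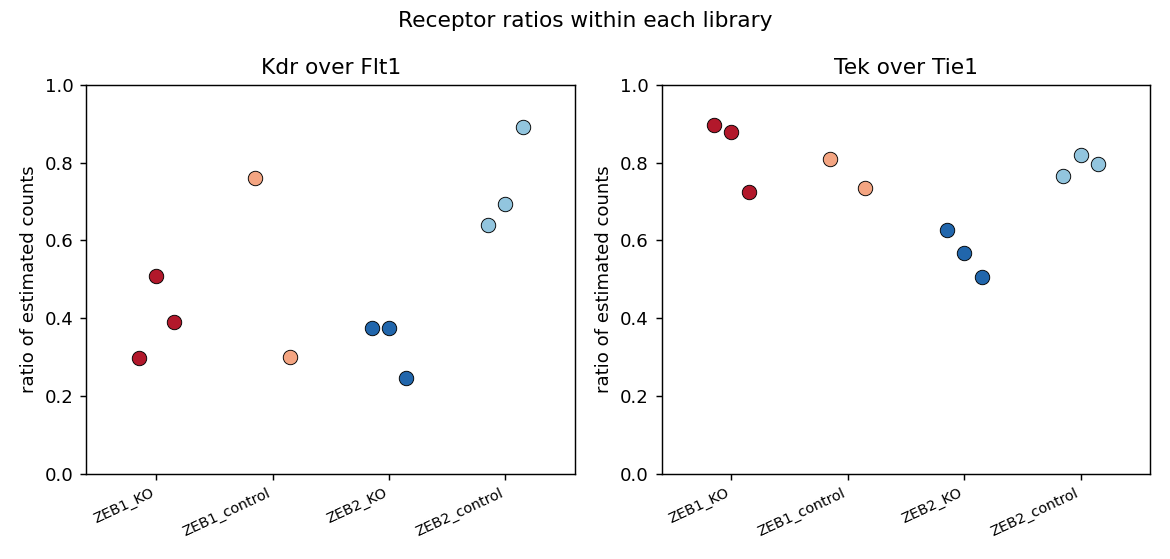
Ratio of estimated counts (y axis) of Kdr over Flt1 (left) and Tek over Tie1 (right) in each library of the 4 groups (points). ZEB2 knockouts lie below ZEB2 controls in both panels, and ZEB1 control 3 has a Kdr over Flt1 ratio of 0.301, inside the range of the ZEB2 knockouts.

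Among the junction and surface genes Ecscr differed most. It stood at 6.87, 5.96 and 4.81 CPM in ZEB2 knockouts, against 9.25, 7.18 and 8.94 CPM in ZEB2 controls, without overlap (-0.52, interval -0.93 to -0.12; edgeR, adjusted p = 0.0987), and without ZEB2 knockout 3 it gave -0.38. Cdh5, at 102.1, 91.2 and 99.8 CPM in ZEB2 knockouts and 132.2, 100.8 and 124.8 CPM in ZEB2 controls, overlapped through 1 control (-0.29, interval -0.62 to 0.05; edgeR, adjusted p = 0.202). Pecam1 was the flattest gene, with 116.1, 99.9 and 121.3 CPM in ZEB2 knockouts and 139.5, 98.9 and 106.3 CPM in ZEB2 controls. Its log2 fold change was -0.03 with an interval of -0.37 to 0.31 (edgeR, adjusted p = 0.899). Emcn gave -0.20 (interval -0.54 to 0.14; edgeR, adjusted p = 0.370). Both classical junction genes thus overlapped between the groups.

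Vwf averaged 46.4 ± 5.31 CPM in ZEB2 knockouts and 50.5 ± 7.31 CPM in ZEB2 controls (SD, n = 3 each), a log2 fold change of -0.12 with an interval of -0.49 to 0.24 (edgeR, adjusted p = 0.612). Sox17 stood at 8.87, 8.33 and 10.98 CPM in ZEB2 knockouts, against 6.40, 7.06 and 7.67 CPM in ZEB2 controls. It was the marker with the highest estimate, 0.41 with an interval of -0.01 to 0.84 (edgeR, adjusted p = 0.161), and the groups did not overlap. Without ZEB2 knockout 3 it was 0.31. In all, 3 markers were lower without overlap and 2 higher, against 22.1% and 21.3% of all genes.

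In ZEB1 knockouts Ecscr, Kdr and Vwf had the lowest estimates, and none of the 10 intervals excluded 0. Lower values were found for 8 of the 10, and their median was -0.14 on the log2 scale, beside 0.007 over all genes, 48.7% of which were lower. No marker and no other gene passed the edgeR test (0.00% called). At an unadjusted p under 0.05 there were 0 of 10 markers and 3.24% of all genes (1.60% lower, 1.64% higher). Ecscr stood at 5.46, 5.28 and 6.79 CPM in ZEB1 knockouts, against 8.51 and 6.996 CPM in ZEB1 controls (-0.41, interval -0.86 to 0.05; edgeR, adjusted p = 1.00), and it gave -0.28 without ZEB1 control 2. Vwf stood at 43.9, 52.0 and 35.7 CPM in ZEB1 knockouts, against 54.9 and 54.1 CPM in ZEB1 controls (-0.31, interval -0.72 to 0.09; edgeR, adjusted p = 1.00). These 2 were lower without overlap and 0 were higher, against 6.69% and 7.19% of all genes.

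Kdr in the ZEB1 line depended on 1 control. It stood at 40.9, 38.5 and 47.8 CPM in ZEB1 knockouts, against 73.2 and 34.7 CPM in ZEB1 controls, so that the controls enclosed the knockouts. The log2 fold change was -0.35 with all libraries, 0.27 without ZEB1 control 2 and -0.80 without ZEB1 control 3. Tek, at 32.5, 30.8 and 31.2 CPM in ZEB1 knockouts and 37.7 and 28.6 CPM in ZEB1 controls, gave -0.07 (interval -0.44 to 0.29) and 0.12 without ZEB1 control 2. Flt1 at 137.8, 75.8 and 122.4 CPM in ZEB1 knockouts and 96.2 and 115.3 CPM in ZEB1 controls (0.08, interval -0.46 to 0.62) spread widely among knockouts, and its value was -0.11 without ZEB1 knockout 1, 0.30 without ZEB1 knockout 2 and -0.06 without ZEB1 control 2. Cdh5 (-0.18), Tie1 (-0.17), Emcn (-0.11) and Pecam1 (-0.10) were slightly lower, each with overlapping groups and an interval that includes 0. Sox17 overlapped as well, and its value of 0.15 turned on single libraries, being -0.13 without ZEB1 control 2, 0.46 without ZEB1 control 3 and 0.00 without ZEB1 knockout 1.

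**Figure D3:**
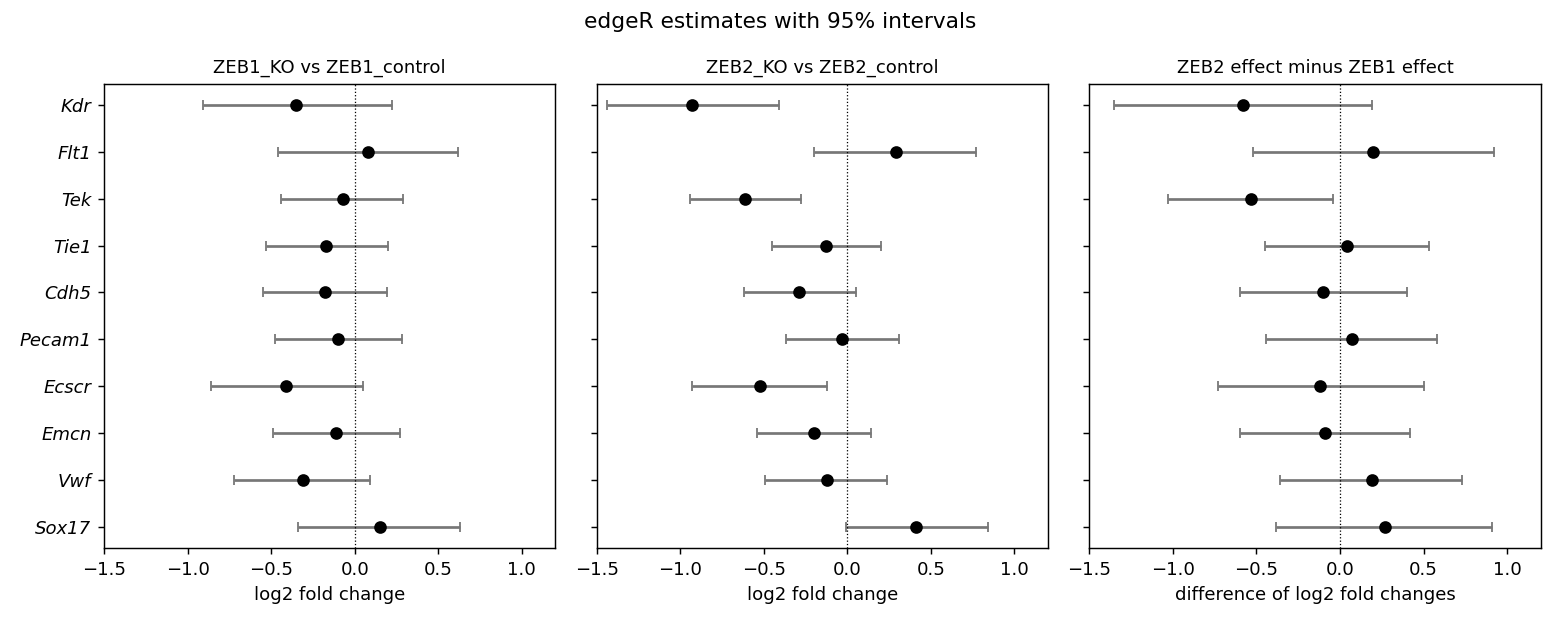
Log2 fold changes (x axis) of the 10 markers with 95% intervals from edgeR, in ZEB1 knockout against ZEB1 control, ZEB2 knockout against ZEB2 control, and the difference between both effects. Intervals of Kdr, Tek and Ecscr lie below 0 in the ZEB2 comparison, and that of Tek in the difference.

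Whether both knockouts differed in their effect was tested directly. The ZEB2 effect minus the ZEB1 effect was -0.58 for Kdr (interval -1.35 to 0.19) and -0.53 for Tek (-1.03 to -0.04), each on the log2 scale (edgeR, adjusted p = 0.542 and 0.516). Tek was the only marker of 10 at an unadjusted p under 0.05, against 9.26% of all genes (5.09% lower, 4.17% higher), and none was called at an adjusted p (0.00% of all genes). Of the 10 differences 5 were below 0, against 54.6% of all genes, and those other than Kdr and Tek ran from -0.12 for Ecscr to 0.27 for Sox17. The value of Kdr was -1.18 without ZEB1 control 2 and -0.11 without ZEB1 control 3, and that of Tek -0.71 and -0.32 without the same libraries. A difference between both knockouts was thus not shown for these receptors.

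The floxed controls of both lines, which are the same libraries as in the comparisons above, overlapped for each of the 10 genes. Of 10 markers 7 were higher in ZEB2 controls than in ZEB1 controls and 3 lower, with a median of 0.09 and 47.6% of all genes lower. None was called by edgeR, where 0.0195% of all genes were. At an unadjusted p under 0.05 there were 0 markers, against 3.32% of all genes (1.75% lower, 1.57% higher), and 0 had groups apart, against 7.66% lower and 8.96% higher. The largest estimate was that of Kdr, 0.38 with an interval of -0.19 to 0.96, and it was -0.07 without ZEB1 control 3 and 1.00 without ZEB1 control 2.

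Trim63, the ubiquitin ligase MuRF1 of muscle atrophy, was looked at after these values were seen. It stood at 5157, 4973 and 7378 CPM in ZEB2 knockouts, against 2139, 3197 and 956.2 CPM in ZEB2 controls, higher in every knockout (1.48, interval -0.12 to 3.07; edgeR, adjusted p = 0.175). In the ZEB1 line it was 4709.9, 925.1 and 2854 CPM in knockouts, against 769.9 and 4750.0 CPM in controls. In the same order of libraries Kdr was 37.8, 37.3 and 35.9 CPM in ZEB2 knockouts, against 62.1, 64.4 and 84.2 CPM in ZEB2 controls. For the ZEB1 line Kdr was 40.9, 38.5 and 47.8 CPM in knockouts, against 73.2 and 34.7 CPM in controls. The part of Trim63, or of the state it marks, in the level of Kdr was not tested.

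Over the 11 libraries 32 of 45 pairs of markers had a positive Pearson correlation of log2 CPM, with a median r of 0.35. Cdh5 and Tie1 were most alike (0.91), followed by Cdh5 and Ecscr (0.85) and by Kdr and Ecscr (0.80), and Kdr and Tek reached 0.78. Sox17 ran against several, with -0.75 for Tek and -0.60 for both Kdr and Ecscr. With group means taken off, 31 of 45 pairs stayed positive and the median was 0.17. These values are descriptions, since the points share library scaling and group structure.

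Other endothelial genes were mostly lower as well. Of 30 further pan-endothelial genes 24 were lower and 6 higher in ZEB2 knockouts, with a median of -0.31. At an unadjusted p under 0.05 there were 13 lower and 1 higher, against 17.3% and 15.9% of all genes. Calcrl, the receptor subunit for adrenomedullin, averaged 8.84 ± 1.36 CPM in ZEB2 knockouts and 17.03 ± 3.56 CPM in ZEB2 controls (SD, n = 3 each; -0.95, edgeR, adjusted p = 0.0775), whereas its partner subunit Ramp2 averaged 28.3 ± 2.02 CPM in ZEB2 knockouts and 19.4 ± 1.06 CPM in ZEB2 controls (0.54, edgeR, adjusted p = 0.0830). Ramp2, chosen after its values were seen, was the 1 gene higher at that unadjusted p. Podxl, a sialomucin of the luminal surface, gave -0.71 (edgeR, adjusted p = 0.0775) and Cd93, a surface receptor of angiogenic endothelium, gave -0.79 (edgeR, adjusted p = 0.0813). In ZEB1 knockouts 24 of the 30 were also lower, against 48.7% of all genes, with a median of -0.04. Of the 30, 1 had an unadjusted p under 0.05, against 3.24% of all genes.

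Ligands and co-receptors of the same pathways were lower for 11 of 13 in ZEB2 knockouts, with a median of -0.46. At an unadjusted p under 0.05 there were 6 of 13, all lower, against 17.3% of all genes lower. Angpt1, the agonist ligand of Tek, averaged 3.73 ± 0.879 CPM in ZEB2 knockouts and 10.6 ± 2.82 CPM in ZEB2 controls (SD, n = 3 each; -1.51, interval -2.46 to -0.55; edgeR, adjusted p = 0.0824). Nrp1, a co-receptor of Kdr, averaged 17.6 ± 1.84 CPM in ZEB2 knockouts and 31.1 ± 5.61 CPM in ZEB2 controls (-0.82; edgeR, adjusted p = 0.0869), and Nrp2 gave -0.46 (edgeR, adjusted p = 0.0904). In the Tek system receptor and ligand thus both had lower estimates, with neither called by edgeR. In ZEB1 knockouts 6 of 13 were lower, with a median of 0.00. Angpt1 was among the lower ones, at -0.93 with an interval of -1.95 to 0.09 and overlapping groups. Its ZEB2 effect minus its ZEB1 effect was -0.58 (interval -1.98 to 0.82; edgeR, adjusted p = 0.704).

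Lists for vessel types had different medians in ZEB2 knockouts. Lymphatic genes were lower for 7 of 7 (median -0.62), with Prox1, the lymphatic fate factor, at -1.06, Pdpn at -0.77 and Ccl21a at -1.17. Arterial genes were lower for 9 of 12 (median -0.29), with the Notch ligands Dll4 at -0.55 and Jag2 at -0.36 and the netrin receptor Unc5b at -1.05. Venous and activation genes were lower for 7 of 9 (median -0.25), with the ephrin receptor Ephb4 at -0.34, the matrix protein Vwa1 at -0.45 and P-selectin, Selp, at -0.57. Groups overlapped for Ccl21a, Unc5b and Selp, and the interval of Selp, -1.45 to 0.30, included 0. Capillary genes were lower for 5 of 12 (median 0.09). At an unadjusted p under 0.05 these lists had 3 of 7, 3 of 12, 2 of 9 and 2 of 12 genes lower, against 17.3% of all genes, and the capillary list had 1 of 12 higher, against 15.9%. The arterial, venous and capillary shares are near those of all genes. In ZEB1 knockouts the medians were -0.43, 0.10, -0.18 and 0.17 in the same order, with 0 genes called in any list of either comparison.

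**Figure D4:**
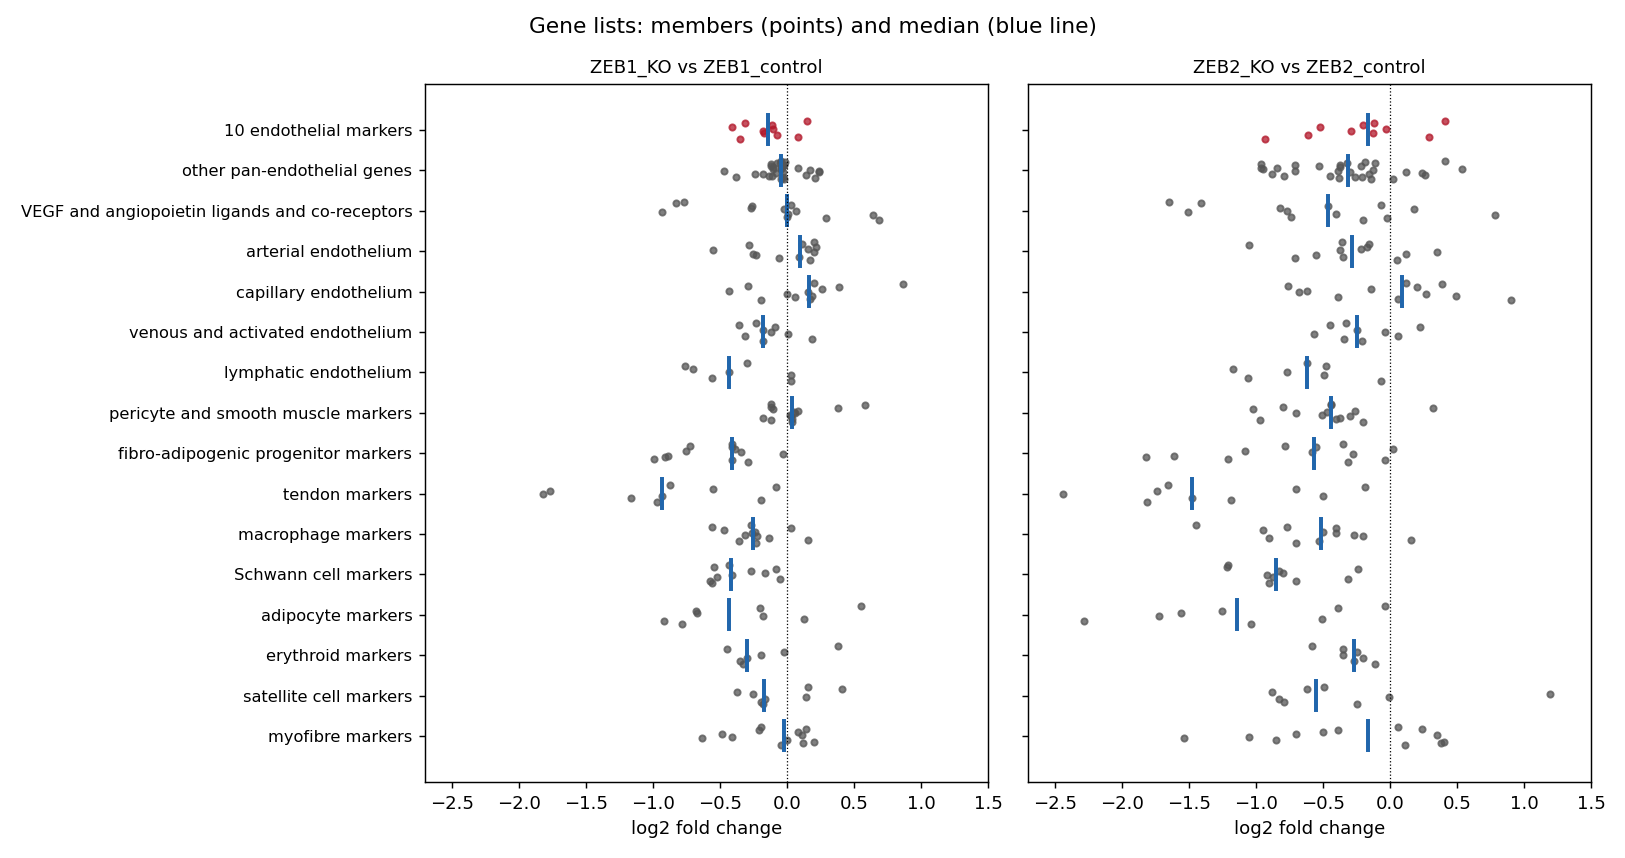
Log2 fold change (x axis) of every tested gene (points) of the 10 markers (red) and of the other endothelial and cell-type lists (grey), with list medians (blue lines), in ZEB1 and ZEB2 knockouts against their controls. The marker median is -0.16 in the ZEB2 comparison, where the tendon median is -1.48 and the pericyte median -0.44.

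Markers of several other cell types of muscle were lower in the same ZEB2 knockout libraries. Pericyte and smooth muscle markers, which sit on the same vessels, were lower for 13 of 14 (median -0.44), with Mcam at -0.80, Acta2 at -0.70 and Cspg4 at -0.97. The exception was Des (0.32), named after its value was seen, which myofibres also express, and the summed level of the list, Des included, was 3313 to 3562 CPM in ZEB2 knockouts, against 2933 to 3213 CPM in ZEB2 controls. The counts of lower genes and medians were 11 of 12 and -0.56 for fibro-adipogenic progenitors, 9 of 9 and -1.48 for tendon, 11 of 12 and -0.51 for macrophages, 10 of 10 and -0.85 for Schwann cells, 8 of 8 and -1.15 for adipocytes, 7 of 8 and -0.55 for satellite cells and 7 of 7 and -0.27 for erythroid cells. Summed levels were 108.2 to 119.6 CPM in ZEB2 knockouts, against 133.5 to 176.3 CPM in ZEB2 controls, for macrophages. For progenitors they were 1709 to 1875 CPM in ZEB2 knockouts, against 1839.7 to 2319 CPM in ZEB2 controls, which overlap. Tendon markers summed to 63.7 to 78.7 CPM in ZEB2 knockouts, against 96.4 to 187.0 CPM in ZEB2 controls, and Schwann cell markers to 158.3 to 260.3 CPM in ZEB2 knockouts, against 242.8 to 482.2 CPM in ZEB2 controls, where the Schwann cell sums overlap. Sums also overlapped for adipocytes (709.8 to 860.6 CPM in ZEB2 knockouts, 682.9 to 1143 CPM in ZEB2 controls), satellite cells (123.4 to 175.6 CPM in ZEB2 knockouts, 126.5 to 136.8 CPM in ZEB2 controls) and erythroid cells (1134 to 1429 CPM in ZEB2 knockouts, 1392 to 1782 CPM in ZEB2 controls).

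Myofibre genes were lower for 6 of 12, with a median of -0.16, and their sum was 119284 to 122064 CPM in ZEB2 knockouts, against 107979.8 to 112245 CPM in ZEB2 controls. No list had a marker at 0 in all libraries. In ZEB1 knockouts the medians were 0.04 for pericytes, -0.41 for progenitors, -0.93 for tendon, -0.25 for macrophages, -0.42 for Schwann cells, -0.43 for adipocytes, -0.17 for satellite cells, -0.30 for erythroid cells and -0.02 for myofibres. The part of these shifts in the lower Kdr, Tek and Ecscr was not tested. Within the same libraries Pecam1, Tie1 and Vwf gave -0.03, -0.13 and -0.12, and Cdh5 and Emcn gave -0.29 and -0.20. Flt1 and Sox17 were higher, at 0.29 and 0.41. The 30 further pan-endothelial genes had a median of -0.31, with 24 lower and 6 higher.

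The genes whose pattern was most like the mean standardised level of the 10 markers were sought among 11489 named genes over the 11 libraries. Fam171a1 (r = 0.94), Arap2 (0.92), Atp1b3 (0.88), Gucy1a1 (0.88) and Etv5 (0.87) came first, followed by Sntb2, Ankrd50, Tshz2 and Dph6 (0.86 to 0.87). After group means were taken off, Tor4a (0.96), Peak1, Fam171a1, Entpd1 (0.92 each), Zfp36l1, Rgs3, Hps3 (0.91 each), Lrp5, Tnfrsf1a and Flt4 (0.90 each) were nearest. Fam171a1 was in both sets, and Flt4, VEGF receptor 3 of lymphatic endothelium, was the only gene among them from the lists above.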

How the data were processed

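RNA from 11 pooled libraries was measured with a stranded poly(A) kit, per the labels' protocols. The authors deposited estimated counts per gene as whole numbers, not normalized. The submitters' processing notes name STAR, RSEM, DESeq2 and GRCm38. Their versions, settings, annotation and strand option were not given in the sources used here, so overlapping genes are uncertain. Of the 55385 identifiers 55144 matched GENCODE M21 without version, and coordinates and exon lengths come from it.

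Groups follow the sample titles. The tests ran in edgeR 4.0.16 under R 4.3.3: filterByExpr (minimum count 10, minimum total 15) left 15416 genes with 99.96% of the counts, then TMM scaling and a robust quasi-likelihood fit of 4 group means, adjusted by Benjamini-Hochberg over all genes with a threshold of 0.05. The SE is the log2 fold change over the root of F, and 95% intervals use the fit's degrees of freedom. The biological coefficient of variation was 0.240. Correlations and principal components used log2 CPM with a prior count of 2. The fits were tested on simulated data. Alternatives were DESeq2 1.42.0, limma-voom 3.58.1, other scaling, filters and samples, a replicate block and leaving out each library. No replicates were duplicates, since every pair had a chi-square over its degrees of freedom of at least 16.3.

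The markers and lists were chosen with earlier results of these data known. Named genes were the 10 markers, Zeb1 and Zeb2, up to 3 genes of each list with the smallest unadjusted p in the ZEB2 comparison, and the 10 most similar genes (mean of at least 1 CPM), once plain and once with group means taken off; 1 of these genes is not reported here. Trim63, Ramp2, Des, Aqp1, Aqp7, Cd36, Fabp4, Aplnr and Vegfa fall outside that rule and were chosen after their values were seen. Of the non-endothelial lists only the pericyte genes are named.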

Additional observations from a re-analysis of the deposited data

How the results depend on the processing

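Single markers were followed under 19 alternatives in 4 comparisons. In all, 748 values kept their side of the threshold, and kept their sign or moved by less than the spread of the pools. A further 7 uncalled values changed sign by more than that spread, and 5 passed the threshold where the reported value did not. The 748 include settings that could hardly move a value, so they do not measure stability. Without any single ZEB2 library Kdr in the ZEB1 comparison stayed at -0.36 to -0.35. For the difference of effects, using only the groups compared repeated the reported fit. The number of markers called in the ZEB2 comparison was 2 in DESeq2, 2 with only the groups compared and 1 with no filter, against 0 as reported; it was 0 under all other alternatives and in the other comparisons. All genes called in that comparison numbered 2587, 2077 and 348 under the same 3 settings. For ZEB1 they numbered 21 in DESeq2, 1 in limma-voom and 6 with no filter, and for the difference of effects 17 in DESeq2 and 2 with no filter. Between controls, 3 as reported, they were 16 in DESeq2, 5 with RLE size factors, 7 with no filter and 1 with the replicate block.

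Leaving out 1 library gave 0 to 5 genes called for ZEB1, 0 to 0 for ZEB2, 0 to 3 for the difference and 1 to 5 between controls. The marker median ran from -0.28 (without ZEB1 control 3) to -0.09 for ZEB1, from -0.27 to -0.10 for ZEB2, from -0.13 to 0.07 for the difference and from -0.03 (without ZEB1 control 3) to 0.19 between controls. Leaving out a ZEB1 control rests the contrast on the 1 that remains, assumed to vary like the other groups. Same-numbered libraries had correlations of their deviations from -0.42 to 0.46 over 15 pairs, of which 8 were above 0.1. Deviations within a group of 2 or 3 libraries depend on each other. These values therefore cannot decide whether the numbers pair the samples. With the replicate block the marker medians were -0.19 for ZEB1, -0.16 for ZEB2, 0.02 for the difference and 0.06 between controls. The causes were not tested. The number of pools, 2 or 3 a group, limits the precision of single markers, and each marker had at least 164 counts in every library.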

Other observations

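Transport genes of the capillary list differed among themselves in ZEB2 knockouts. Gpihbp1, which anchors lipoprotein lipase on capillary endothelium, stood at 54.4, 53.5 and 64.9 CPM in ZEB2 knockouts, against 45.7, 41.3 and 36.2 CPM in ZEB2 controls, with a log2 fold change of 0.49 (edgeR, adjusted p = 0.0980). The water channel Aqp1 averaged 484.9 ± 73.7 CPM in ZEB2 knockouts and 401.5 ± 38.4 CPM in ZEB2 controls (SD, n = 3 each; 0.27). The fatty acid transporter Cd36, which myofibres also express, gave 0.06 and the lipid chaperone Fabp4 gave -0.39. Aqp7, a channel for water and glycerol, stood at 11.3, 10.8 and 5.41 CPM in ZEB2 knockouts, against 16.6, 11.7 and 15.7 CPM in ZEB2 controls, lower without overlap (-0.68; edgeR, adjusted p = 0.256). In the same list Sparcl1, a matricellular protein, averaged 101.8 ± 4.42 CPM in ZEB2 knockouts and 172.5 ± 22.1 CPM in ZEB2 controls (-0.76; edgeR, adjusted p = 0.0775), and the homeobox gene Meox2 gave -0.62. Aqp1, Cd36, Fabp4 and Aqp7 were chosen after their values were seen. The cell type behind each of these values in bulk muscle was not tested, and adipocyte markers were lower for 8 of 8 in the same knockouts (median -1.15).

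Aplnr, the apelin receptor of sprouting endothelium, had the lowest estimate of the ligand and co-receptor list and was also chosen after its values were seen. It stood at 4.48, 6.17 and 1.01 CPM in ZEB2 knockouts, against 7.27, 13.05 and 16.4 CPM in ZEB2 controls (-1.65; edgeR, adjusted p = 0.110). Vegfa, the main ligand of Kdr, which myofibres produce, was likewise chosen after its values were seen. It stood at 194.1, 172.4 and 78.0 CPM in ZEB2 knockouts, against 136.5, 176.0 and 196.7 CPM in ZEB2 controls. In the ZEB1 line Vegfa stood at 315.6, 196.3 and 185.0 CPM in knockouts, against 166.5 and 121.0 CPM in controls (0.69; edgeR, adjusted p = 1.00).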
